A study of Mus musculus with 16 samples.

Results

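The phagocyte NADPH oxidase genes described here are 6 of the 49585 genes in the deposited count tables: Cybb, Cyba, Ncf1, Ncf4, Hvcn1 and Cybc1. They were chosen by name, as listed subunits of the oxidase together with its chaperone and the voltage-gated proton channel, and all 6 were found by their Ensembl identifiers and passed the filter on low counts in every comparison. RNA was sequenced from neutrophils that the series describes as sorted by flow cytometry, taken from bones of C57BL/6 mice aged 8 to 12 weeks. Neutrophils are the short-lived phagocytes that bone marrow makes in large numbers. There were 4 groups of 4 libraries, in 2 mouse lines that each had a control group. P2KO libraries came from Vav:cre mice with floxed PHD2, an oxygen sensor encoded by Egln1 that marks hypoxia-inducible factors for degradation. P2H2KO libraries came from Vav:cre mice with both PHD2 and HIF2, encoded by Epas1, floxed. P2WT and P2H2WT are the wild-type controls of these lines, and whether they carried floxed alleles or Cre is not given in the labels. Vav:cre is active throughout blood-forming cells, so deletion is not limited to neutrophils. The labels do not say whether libraries of a group came from separate mice, so p-values measure the spread between these libraries.

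The oxidase moves electrons from NADPH in the cytosol across a membrane onto oxygen and so makes superoxide, which phagocytes use against microbes. Its membrane part, flavocytochrome b558, pairs the catalytic subunit gp91phox (Cybb) with p22phox (Cyba). The cytosolic organizer p47phox (Ncf1) and p40phox (Ncf4) join it on activation, together with another cytosolic subunit and the GTPase Rac. EROS, encoded by Cybc1, is a chaperone needed for the flavocytochrome protein. The proton channel Hv1 (Hvcn1) lets protons leave as electrons cross, which balances the charge. Loss of flavocytochrome or cytosolic subunits causes chronic granulomatous disease.

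In GENCODE M21 coordinates (GRCm38), Cybb (ENSMUSG00000015340) lies on the minus strand at chrX:9435252-9487771, and Cyba (ENSMUSG00000006519) on the minus strand at chr8:122424776-122432930. Ncf1 (ENSMUSG00000015950) lies on the minus strand at chr5:134220053-134229625, and Ncf4 (ENSMUSG00000071715) on the plus strand at chr15:78244801-78262580. Hvcn1 (ENSMUSG00000064267) lies on the plus strand at chr5:122206804-122242297, and Cybc1 (ENSMUSG00000039294) on the minus strand at chr11:121222588-121229322. All 6 are protein-coding. Exons of 3 of them overlap exons of a gene on the opposite strand. The overlap covers 44.2% of the exon length of Hvcn1 (with Tctn1), 11.1% of Ncf1 (with Gtf2ird2) and 1.61% of Cybc1 (with Hexdc). Whether the counting used strand is not given in the sources used here, so reads from these stretches cannot be assigned with certainty. The partner genes themselves had between 65 and 289 counts per library.

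RefSeq promoter windows (GRCm38.p6), which run from 250 bases before to 50 bases after an annotated start, were found for Cybb, Cyba, Ncf1 and Cybc1. They are shown because the genes varied together across libraries and because the targeted genes encode PHD2, which acts on hypoxia-inducible factors, and HIF2, which is one of them. Each window was searched on both strands for the hypoxia-inducible factor cores ACGTG and GCGTG, the PU.1 core GAGGAA and the CCAAT box CCAAT. Capitals mark matches, and a match on the strand opposite to the printed one appears as its reverse complement. The windows lie, all on the minus strand, at chrX:9469275-9469574 (Cybb), chr8:122432891-122433190 (Cyba), chr5:134229576-134229875 (Ncf1) and chr11:121228891-121229190 (Cybc1).
Cybb: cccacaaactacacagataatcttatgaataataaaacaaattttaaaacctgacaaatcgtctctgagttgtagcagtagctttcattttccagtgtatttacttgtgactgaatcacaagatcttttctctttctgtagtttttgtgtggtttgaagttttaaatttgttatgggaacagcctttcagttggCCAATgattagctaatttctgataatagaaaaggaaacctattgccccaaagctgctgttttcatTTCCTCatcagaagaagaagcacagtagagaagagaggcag
Cyba: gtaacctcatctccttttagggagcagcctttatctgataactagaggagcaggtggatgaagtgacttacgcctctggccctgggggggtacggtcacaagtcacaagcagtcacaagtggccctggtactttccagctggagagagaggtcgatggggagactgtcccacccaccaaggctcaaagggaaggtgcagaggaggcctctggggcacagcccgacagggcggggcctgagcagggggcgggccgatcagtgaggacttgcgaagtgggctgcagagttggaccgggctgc
Ncf1: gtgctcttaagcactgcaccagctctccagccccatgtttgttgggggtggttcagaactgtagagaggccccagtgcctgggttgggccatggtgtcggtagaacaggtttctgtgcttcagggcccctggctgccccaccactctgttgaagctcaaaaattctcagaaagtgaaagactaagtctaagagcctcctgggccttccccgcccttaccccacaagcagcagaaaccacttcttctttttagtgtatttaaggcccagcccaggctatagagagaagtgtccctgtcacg
Cybc1: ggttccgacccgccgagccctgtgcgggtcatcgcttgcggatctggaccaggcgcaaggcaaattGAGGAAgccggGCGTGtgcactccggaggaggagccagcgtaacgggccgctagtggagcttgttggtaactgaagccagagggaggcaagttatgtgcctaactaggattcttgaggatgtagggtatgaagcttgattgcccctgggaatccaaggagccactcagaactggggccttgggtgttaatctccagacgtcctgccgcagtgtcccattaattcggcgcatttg
The Cybb window held CCAAT at bases 195 to 199, counted from 1 at the 5′ end of the window. It held the PU.1 core on the strand opposite to the printed one at bases 260 to 265, past the start. Neither the Cyba nor the Ncf1 window held any of these letters. The Cybc1 window held GCGTG at bases 78 to 82 and GAGGAA at bases 67 to 72. Among 32851 promoter windows of this length, ACGTG was present in 19.6%, GCGTG in 32.4%, GAGGAA in 28.3% and CCAAT in 37.4%. The windows also differed in base composition, from 35.3% G and C with 1 CG dinucleotide in Cybb to 60.7% with 9 in Cyba. Ncf1 had 54% with 3, and Cybc1 had 58% with 17.

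Libraries held between 23450746 and 28601284 counts. Counts of the targeted genes did not separate deficient from control libraries: Egln1 was at 43.2 to 58.3 CPM (the usual read count scaled to library size) in P2KO and 45.9 to 51.3 in P2WT, and at 49.1 to 58.8 in P2H2KO and 47.8 to 54.5 in P2H2WT. Epas1 was at 3.42 to 8.38 CPM in P2H2KO and 2.55 to 4.97 in P2H2WT. In the P2 line Epas1 was at 6.75 to 24.4 CPM in P2KO and 8.69 to 11.3 in P2WT, so the control groups of the lines did not overlap in it. Whole-gene counts include exons outside a floxed region, so they do not check the labels. A list of 8 targets of hypoxia-inducible factors, taken from earlier results of these data and so not independent evidence, was higher for 8 of 8 genes in the average effect over both lines (edgeR, adjusted p under 0.05). All 16 neutrophil markers were detected, with a summed level of 34830 to 90600 CPM. Markers of other cells were detected too: the 11 erythroid markers summed to 24300 to 49920 CPM, 15 monocyte and macrophage markers to 2266 to 4269, 10 eosinophil, basophil and mast cell markers to 2456 to 5320, 10 B cell markers to 235 to 803, and 10 T and NK cell markers to 86.1 to 133. None of these markers was at 0 in all libraries.

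Per kilobase of exon, which allows levels of different genes to be compared, the 6 genes stood in the same order in 16 of 16 libraries. Cyba was highest at 390 ± 85.1 CPM per kb (SD, n = 16), followed by its partner Cybb at 339 ± 83.9. The cytosolic subunits followed, with Ncf1 at 229 ± 47.2 and Ncf4 at 110 ± 23.7 CPM per kb. The proton channel gene Hvcn1 was at 63.3 ± 6.68, and the chaperone gene Cybc1 was lowest at 26.8 ± 3.39 CPM per kb. Cyba and Cybb were thus among the most abundant transcripts, at ranks 82 and 93 of 14059 tested genes, and Cybc1 was at rank 1892. The order also held in all 16 libraries when the longest annotated transcript was used as the length. Neither length leaves out stretches shared with a gene on the opposite strand, which cover 44.2% of the exon length of Hvcn1. Reads there cannot be assigned with certainty, so the place of Hvcn1 relative to its neighbours, such as Ncf4, is uncertain. The closest neighbours were Cyba and Cybb, whose ratio within a library ran from 1.004 to 1.35. Their means differed by less than the SD of either, and the levels of Cybb and Ncf1 also overlapped across libraries. Ncf1 overlapped Ncf4, and Ncf4 overlapped Hvcn1, only at the ends of their ranges, and Hvcn1 and Cybc1 did not overlap.

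**Figure D1:**
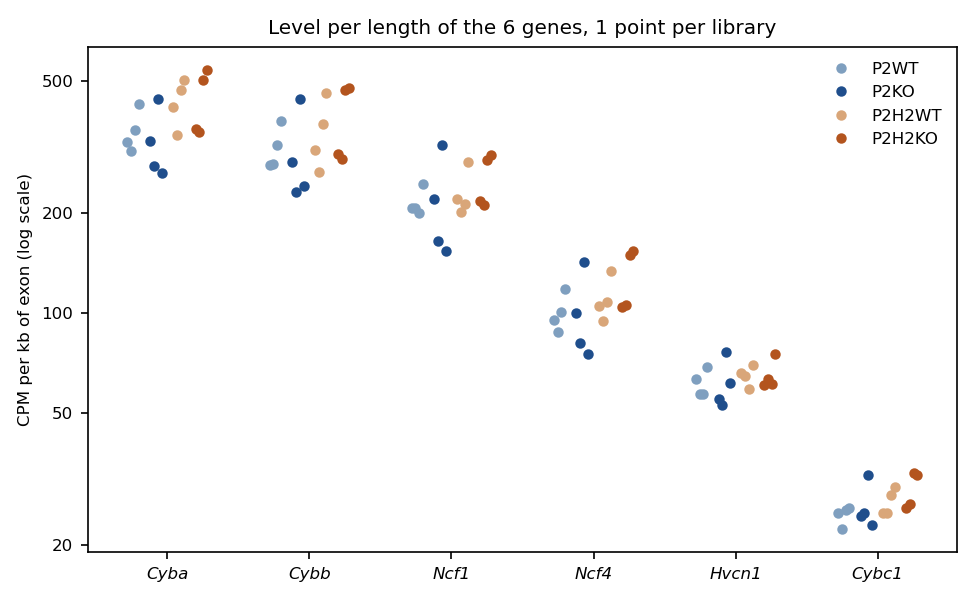
Level of each gene in CPM per kb of exon (log scale), 1 point per library, coloured by group. The order from Cyba to Cybc1 is the same in all 16 libraries, while libraries of a group differ in height.

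Transcripts of oxidases used by other tissues were near 0. All 9 listed genes of other NADPH oxidases and their partners were under 1 CPM in every group, Nox3 and Duox1 had 0 counts in all 16 libraries, which allows up to 3 counts or 0.128 CPM in the shallowest (counting error only), and none of the 9 could be tested. Their summed level was 0.309 to 0.787 CPM, against 2702 to 5152 CPM for the 6 phagocyte oxidase genes.

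None of the 6 genes passed the test between deficient and control libraries in either line. In the P2 line 0 of 6 were called by edgeR (adjusted p under 0.05) or by DESeq2, where edgeR called 0.0437% of 13734 tested genes, and 0 of 6 had an unadjusted p under 0.05, where 3.49% of genes did. In the P2H2 line 0 of 6 were called by either tool, where edgeR called 0.0744% of 13435 genes, and again 0 of 6 had an unadjusted p under 0.05, where 2.63% did. No gene had groups that did not overlap in CPM, which 2.25% of genes had in the P2 line and 1.71% in the P2H2 line. In bulk RNA, fewer cells of a type and less RNA per cell cannot be told apart.

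Cybb, the catalytic subunit, was at 1622, 1637, 1868 and 2211 CPM in P2WT replicates 3, 4, 7 and 10, and at 1660, 1351, 2564 and 1399 CPM in P2KO replicates 1, 5, 6 and 9. In the other line Cybb was at 1801, 1551, 2163 and 2673 CPM in P2H2WT replicates 13, 14, 16 and 18, and at 1754, 1689, 2738 and 2779 CPM in P2H2KO replicates 11, 12, 15 and 17. The groups overlapped in both lines. P2KO held both the lowest libraries of its line and the highest, replicate 6, and P2H2KO split into a low and a high pair. The fold between groups was 0.959 (95% interval 0.682 to 1.35; edgeR adjusted p = 1) in the P2 line and 1.09 (0.775 to 1.55; edgeR adjusted p = 1) in the P2H2 line.

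Cyba, the partner of Cybb in the membrane, followed the same libraries. It was at 342, 320, 371 and 443 CPM in P2WT and at 344, 290, 461 and 274 in P2KO, in the order of replicates given for Cybb. For the P2H2 line the values were 435, 358, 488 and 524 CPM in the controls and 374, 364, 526 and 562 in P2H2KO. The groups overlapped, and the high libraries were again P2KO replicate 6 and P2H2KO replicates 15 and 17. Its fold was 0.934 (0.708 to 1.23) in the P2 line and 1.01 (0.774 to 1.32) in the P2H2 line, with an edgeR adjusted p of 1 in both.

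Ncf1, the organizer that carries the cytosolic subunits to the membrane, was at 759, 762, 734 and 896 CPM in P2WT and at 808, 603, 1174 and 562 CPM in P2KO. P2H2WT libraries had 809, 741, 784 and 1043 CPM, and P2H2KO libraries 796, 775, 1064 and 1095. P2KO spanned both ends of its line, with replicate 6 more than any control and replicates 5 and 9 less than any control. The fold was 1.01 (0.711 to 1.43) and 1.10 (0.870 to 1.40) in the P2 and P2H2 lines (edgeR adjusted p = 1 in both).

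Ncf4, whose protein p40phox binds a phosphoinositide lipid on phagosomes, was at 192, 177, 203 and 239 CPM in P2WT and 203, 164, 287 and 152 in P2KO. In P2H2WT it was at 213, 191, 218 and 270 CPM, and in P2H2KO at 211, 214, 302 and 311. The 2 highest P2H2KO libraries lay above all 4 controls and the other 2 among them. It had the highest fold of the 6 genes in the P2H2 line, 1.16 (0.909 to 1.49; unadjusted p = 0.201, edgeR adjusted p = 1), and 1.0 (0.734 to 1.37) in the P2 line.

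Hvcn1, the proton channel gene, had the smallest coefficient of variation within groups, 11.5%, beside 11.7% for Cybc1 and 19.9% to 25.3% for the other 4. It was at 226, 204, 203 and 246 CPM in P2WT, and at 197, 189, 271 and 219 in P2KO. Controls of the P2H2 line had 235, 230, 211 and 248 CPM, and P2H2KO had 216, 225, 219 and 268. The groups lay within each other's range apart from the highest deficient library of each line, the 2 lowest P2KO libraries and the lowest P2H2WT library. Its folds were 1.0 in both lines, with intervals of 0.822 to 1.23 (P2) and 0.870 to 1.16 (P2H2).

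Cybc1, the chaperone gene, was at 105, 93.8, 107 and 109 CPM in P2WT and at 103, 105, 136 and 96.6 in P2KO. Controls of the P2H2 line were at 105, 105, 119 and 126 CPM, and P2H2KO at 109, 112, 139 and 137. In 12 of 16 pairings a P2H2KO library was above a control library, and in the P2 line in 8 of 16. The folds were 1.07 (0.898 to 1.28) and 1.09 (0.927 to 1.28).

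**Figure D2:**
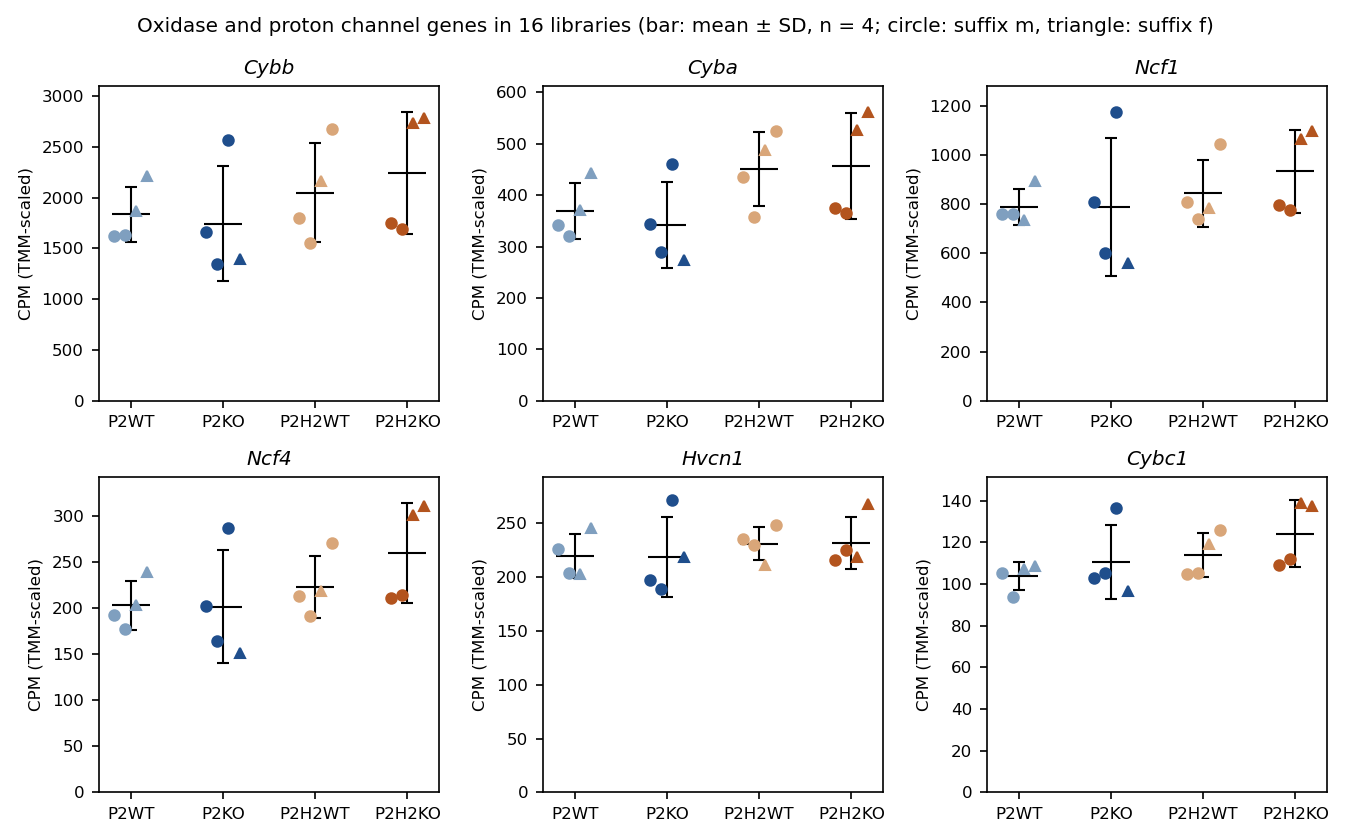
CPM of each gene in every library by group (y axes start at 0), with mean ± SD (n = 4) and the title suffix m or f as symbol. The groups overlap for all 6 genes, and P2KO replicate 6 is the highest library of its group throughout.

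The signs in the P2 line depended on single libraries. Among 8 fits that each left out 1 library, Cybb and Hvcn1 changed sign in 3, Ncf1 and Ncf4 in 5, and Cyba and Cybc1 in 1. Cybb was at 0.047 without P2WT replicate 10, its highest value, and all 6 genes had their lowest value without P2KO replicate 6. In the latter fit the log2 fold changes were -0.31 for Cybb (unadjusted p = 0.0409) and -0.28 for Cyba (unadjusted p = 0.0497), with an edgeR adjusted p of 0.406 for both. There 12.2% of all genes had an unadjusted p under 0.05, against 3.49% with all 8 libraries. Ncf1 was then at -0.25, Ncf4 at -0.22, Hvcn1 at -0.11 and Cybc1 at -0.017 on the log2 scale, so all 6 were negative, and 0 of 6 were called. With all libraries the signs were mixed, with 4 positive and 2 negative and a median log2 fold change of 0.0047, beside 0.020 over all genes. Of the 4 positive values, those of Ncf1, Ncf4 and Hvcn1 were also negative under upper-quartile scaling, at -0.0036, -0.011 and -0.00083. The summed neutrophil markers in P2KO replicate 6 were 81570 CPM, the highest of its line, against 34830 to 68760 CPM in the other 7.

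In the P2H2 line all 6 log2 fold changes were positive, from 0.0042 (Hvcn1) to 0.22 (Ncf4), with a median of 0.13 beside 0.0011 over all genes. None passed the test. Without P2H2KO replicate 17, Cyba was at -0.096 and Hvcn1 at -0.070, and each of the 2 changed sign in 3 of 8 fits that left out 1 library. The 16 neutrophil markers were likewise all higher, with a median log2 fold change of 0.18 and 0 of 16 called by edgeR. The P2H2KO libraries with high oxidase gene levels, replicates 15 and 17, were also the 2 with the suffix f in their titles, whereas 1 of 4 P2H2WT libraries had it. With the suffix as a covariate, Cybb was at -0.019 and Cyba at -0.10 on the log2 scale in this line. Over all 16 libraries the log2 difference between suffix m and suffix f in Cybb, an X-linked gene, was -0.24 (-0.61 to 0.14; edgeR adjusted p = 0.484). For the other 5 genes it lay between -0.20 (Cyba) and -0.012 (Ncf1), and 0 of 6 were called where 0.163% of genes were. The meaning of the suffix is not given in the labels.

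Both lines together narrowed the intervals. In the average effect, which weighs each line against its own controls, 0 of 6 genes were called, where edgeR called 0.170% of 14080 genes, and 0 of 6 had an unadjusted p under 0.05, where 3.72% did. The folds were 1.02 (0.8 to 1.30) for Cybb, 0.968 (0.799 to 1.17) for Cyba, 1.05 (0.851 to 1.30) for Ncf1 and 1.07 (0.880 to 1.31) for Ncf4. Hvcn1 had a fold of 0.999 (0.890 to 1.12), the narrowest interval relative to 1. Cybc1 had 1.08 (0.958 to 1.21; unadjusted p = 0.195), the smallest p of the 6. Without P2KO replicate 6 the average log2 effect of Cybb was -0.095, that of Ncf1 -0.058 and that of Ncf4 -0.0073, so these 3 changed sign.

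The effect in the P2 line was also set against that in the P2H2 line. All 6 differences were negative, from -0.23 (Ncf4) to -0.0086 (Hvcn1) on the log2 scale, with intervals that included 0. Hvcn1 and Cybc1 were positive in 5 of 16 fits that left out 1 library, up to 0.056 (without P2H2KO replicate 17) and 0.022 (without P2KO replicate 9). None of the 6 was called, as was none of the 14080 genes (0.00%; edgeR), of which 212 (1.51%) had an unadjusted p under 0.05, none of them a member. The 6 genes had a median difference of -0.14, beside 0.0012 over all genes. Cybb had -0.20 (fold 0.869, interval 0.534 to 1.41), so differences of this size in either direction were not resolved.

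Between the 2 control groups all 6 genes were lower in P2WT than in P2H2WT. Their log2 differences ran from -0.29 (Cyba; unadjusted p = 0.0505, edgeR adjusted p = 0.441) to -0.077 (Hvcn1), with a median of -0.14 beside -0.012 over all genes. None of the 6 was called by edgeR where 1.22% of 13593 genes were, none had an unadjusted p under 0.05 where 11.4% did, and none had groups that did not overlap, which 7.81% of genes had. The count with an unadjusted p under 0.05 depended on the setting. It was 1 of 6 with DESeq2 (11.9% of genes), upper-quartile factors (11.2%) or no filter (7.80%), and 2 of 6 with the suffix as covariate (15.2%). It was 0 of 6 with RLE factors, the 10-count minimum, the joint fit or the marker score. Without P2H2WT replicate 14 it was 1 of 6 (15.5%). Without P2WT replicate 10 the difference of Cyba was -0.39 (unadjusted p = 0.00738, edgeR adjusted p = 0.157). Without P2H2WT replicate 18 that of Ncf1 was 0.0050. The 16 neutrophil markers were lower in P2WT as well, by a median log2 difference of -0.17. Line, table and handling cannot be told apart in this comparison.

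**Figure D3:**
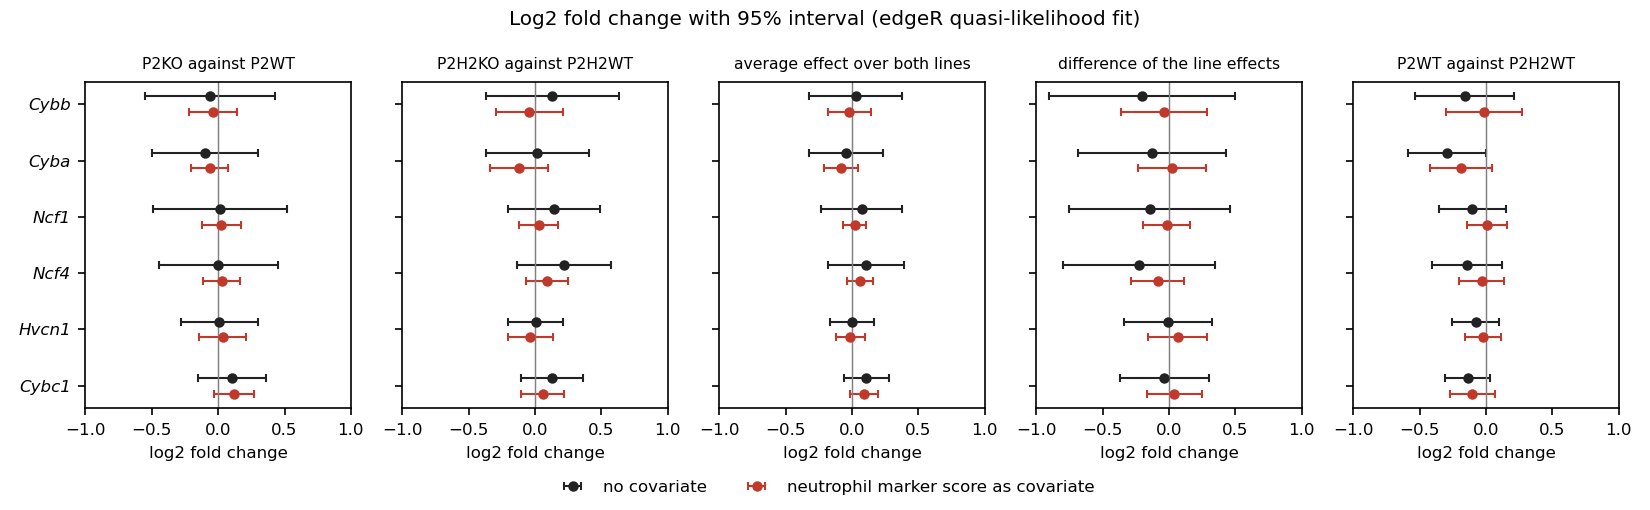
Log2 fold change of each gene with its 95% interval in the 5 comparisons (x axis, log2 scale), without a covariate (black) and with the neutrophil marker score as covariate (red). All intervals without the covariate include 0, and those with it are narrower for all 6 genes in the average effect.

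The membrane and cytosolic subunit genes varied together from library to library, and many genes outside the complex varied with them. Over the 16 libraries with line means removed, 16.5% of 9538 genes had r above 0.8 with Cybb. Within the P2 line, the Cybb and Cyba levels correlated with r = 0.977 (n = 8 libraries, exact p = 0.000223, adjusted over 30 relations 0.00208) and rho = 0.952 (exact p = 0.00114, adjusted 0.00837). Within the P2H2 line r was 0.962 (exact p = 0.00181, adjusted 0.00494) and rho 1 (exact p = 4.96e-05, adjusted 0.000744). The relation held without the 2 libraries farthest from the median, at r = 0.944 and 0.939. Ncf1 and Ncf4, whose proteins belong to the same cytosolic complex at rest, had r = 0.966 in the P2 line (exact p = 0.000347, adjusted 0.00208) and rho = 0.833 (exact p = 0.0154, adjusted 0.0384). Within the P2H2 line they had r = 0.980 (exact p = 0.000570, adjusted 0.00244) and rho = 0.810 (exact p = 0.0218, adjusted 0.0436). Without the 2 farthest libraries r was 0.875 and 0.963. Such correlation was not limited to partners. Cyba and Ncf4 had r = 0.976 and rho = 1 in the P2 line, and r = 0.878 and rho = 0.929 in the P2H2 line.

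Over the 16 libraries with line means removed, Hvcn1 followed the others least, at r from 0.559 (Cybc1) to 0.688 (Ncf1). The pairs without Hvcn1 were at 0.816 or more. Of 15 gene pairs in each line, 14 in the P2 line and 10 in the P2H2 line had an adjusted exact p of r under 0.05, and all pairs that missed it involved Hvcn1. By the adjusted exact p of rho, 8 and 9 of 15 passed, and pairs of Cybc1 with Cybb (P2 line) and with Ncf1 (both lines) missed it as well as pairs of Hvcn1. With Cybb its r was 0.806 in the P2 line (exact p = 0.0165, adjusted 0.0256; rho = 0.571, exact p = 0.151, adjusted 0.227). That relation rests on 2 libraries, since r was 0.096 without them. Without the 2 farthest libraries of the P2 line, Hvcn1 also had r = 0.0062 with Cyba and -0.20 with Cybc1. It kept 0.747 with Ncf1 and 0.768 with Ncf4, while Ncf1 with Cybc1 fell to 0.072. In the P2H2 line the r of Hvcn1 with Cybb was 0.435 (exact p = 0.287, adjusted 0.297; rho = 0.310, exact p = 0.462, adjusted 0.478). Cybc1 and Cybb had r = 0.787 (P2 line) and 0.948 (P2H2 line), with adjusted exact p of 0.0256 and 0.00372, and r = 0.255 and 0.919 without the 2 farthest libraries. Their rho was 0.643 (exact p = 0.0962, adjusted 0.152) and 0.810 (exact p = 0.0218, adjusted 0.0436).

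The ratio of partner genes within a library does not depend on library scaling. Cybb to Cyba, per kilobase of exon, ran from 0.740 to 0.996 over the 16 libraries, and the SD of its log2 value was 0.11, against 0.35 for Cybb and 0.31 for Cyba alone. Ncf1 to Ncf4 ran from 1.94 to 2.37, with an SD of 0.081 on the log2 scale against 0.29 and 0.30 for the genes alone. A narrow ratio was not limited to partners, as the SD of the log2 ratio was 0.13 for Cybb to Ncf1. It was 0.15 for Hvcn1 to Cybc1 and 0.23 for Ncf4 to Hvcn1. Cybc1 to Cybb ran from 0.0649 to 0.107, and the SD of its log2 value, 0.21, was larger than that of Cybc1 alone (0.18) and smaller than that of Cybb alone (0.35).

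The ratios did not pass the test between deficient and control libraries in either line. In 6 exact two-sided permutation tests of 4 against 4 libraries, whose smallest possible p is 0.0286, no adjusted p was under 0.05. Cybb to Cyba had geometric means of 0.870 in P2H2KO and 0.803 in P2H2WT (exact p = 0.171, adjusted 0.514), and of 0.900 and 0.889 in P2KO and P2WT (exact p = 0.8, adjusted 1). The P2H2WT libraries were at 0.740, 0.775, 0.794 and 0.912. The highest of them, replicate 18, was the only one within the range of P2H2KO, and the rest lay below that range. Leaving it out therefore fixed the smallest p that 3 against 4 allows (exact p = 0.0286, unadjusted), so that p decides nothing. The log2 difference was then 0.18, the highest of 8 fits that each left out 1 library, against 0.077 in the lowest. Ncf1 to Ncf4 had geometric means of 1.99 in P2H2KO and 2.08 in P2H2WT (exact p = 0.114, adjusted 0.514), and of 2.13 and 2.15 in P2KO and P2WT (exact p = 0.886, adjusted 1). Cybc1 to Cybb had 0.0895 in P2KO and 0.0784 in P2WT (exact p = 0.257, adjusted 0.514) and 0.0781 in both groups of the P2H2 line (exact p = 1).

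**Figure D4:**
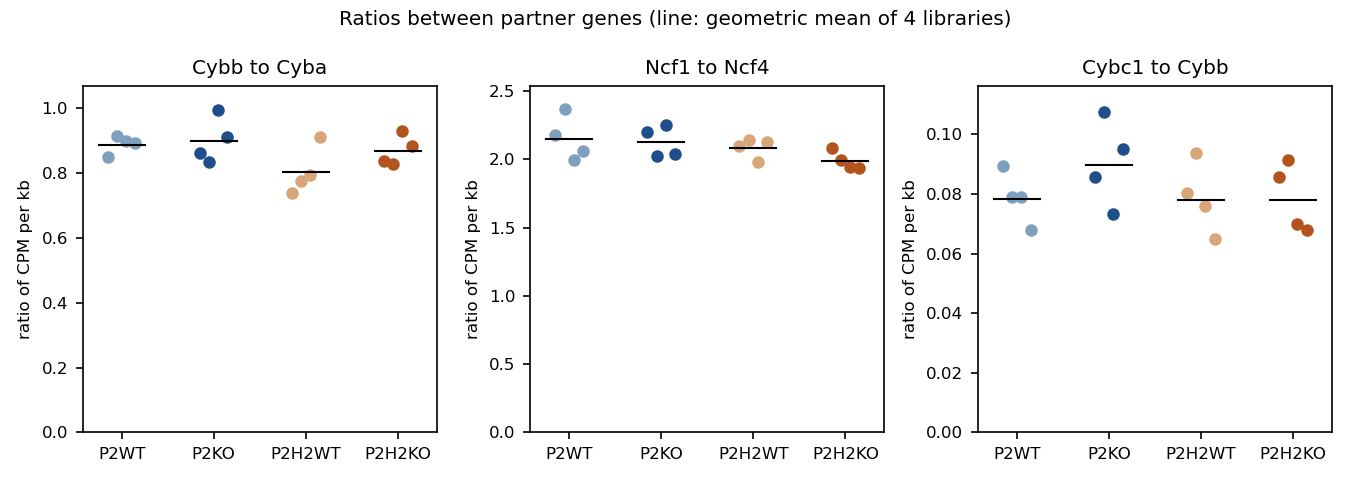
Ratio of CPM per kb within each library for 3 partner pairs by group (y axes start at 0), with the geometric mean as a line. Ncf1 to Ncf4 stays between 1.94 and 2.37 in all 16 libraries, and the groups overlap in every panel.

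Oxidase subunit levels went with the neutrophil marker level of a library. The score of the 16 neutrophil markers, which include none of the 6 genes, is their mean log2 CPM, and its relations to the 6 genes were computed after the values had been seen. In the P2 line it correlated with Ncf1 at r = 0.973 (n = 8, exact p = 4.96e-05, adjusted over 24 relations 0.00119) and rho = 0.976 (exact p = 0.000397, adjusted 0.00952), and r was 0.990 without the 2 farthest libraries. Within the P2H2 line Ncf1 had r = 0.975 (exact p = 0.000322, adjusted 0.00337) and rho = 0.952 (exact p = 0.00114, adjusted 0.0137), and 0.962 without 2. Cybb, Cyba and Ncf4 had r between 0.864 and 0.966 in the 2 lines, each with an adjusted exact p of r under 0.05, and between 0.731 and 0.914 without 2. Their rho ran from 0.714 to 0.881, and its adjusted exact p missed 0.05 for Cybb in the P2 line (0.0747) and Ncf4 in the P2H2 line (0.173). Hvcn1 had r = 0.803 and 0.679, with adjusted exact p of 0.0436 and 0.124. Without the 2 farthest libraries these were 0.045 and -0.21, so the relation of Hvcn1 rests on those libraries. Cybc1 had r = 0.766 and 0.849 (adjusted exact p of 0.0467 and 0.0331), and 0.172 and 0.780 without 2. The rho of Hvcn1 and Cybc1 ran from 0.548 to 0.595, with an adjusted exact p of 0.242 or 0.257. With the score of monocyte and macrophage markers none of the 12 relations had an adjusted exact p under 0.05, and r ran from -0.25 to 0.65. Without the 2 farthest libraries r ran from -0.54 (Cybc1, P2 line) to 0.69 (Cyba, P2H2 line). That score pools monocyte with macrophage markers, so it cannot describe either cell type alone.

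With the neutrophil marker score added to the edgeR fit as a covariate, an alternative chosen after seeing the data, 0 of 6 genes were called in the P2 line (0.0947% of genes), the P2H2 line (0.0670%), the average effect (0.355%), the difference of the effects (0.00%) or the comparison of controls (1.10%). The interval of the average log2 effect of Cybb narrowed from -0.32 to 0.38 down to -0.18 to 0.14, around -0.020. For Ncf1 it became -0.069 to 0.11, around 0.020. Cyba was at -0.082 (-0.21 to 0.044), Ncf4 at 0.060 (-0.038 to 0.16) and Hvcn1 at -0.012 (-0.12 to 0.098). Cybc1 was at 0.091 (-0.013 to 0.19), with an unadjusted p of 0.0810. The covariate is itself measured in the same libraries.

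**Figure D5:**
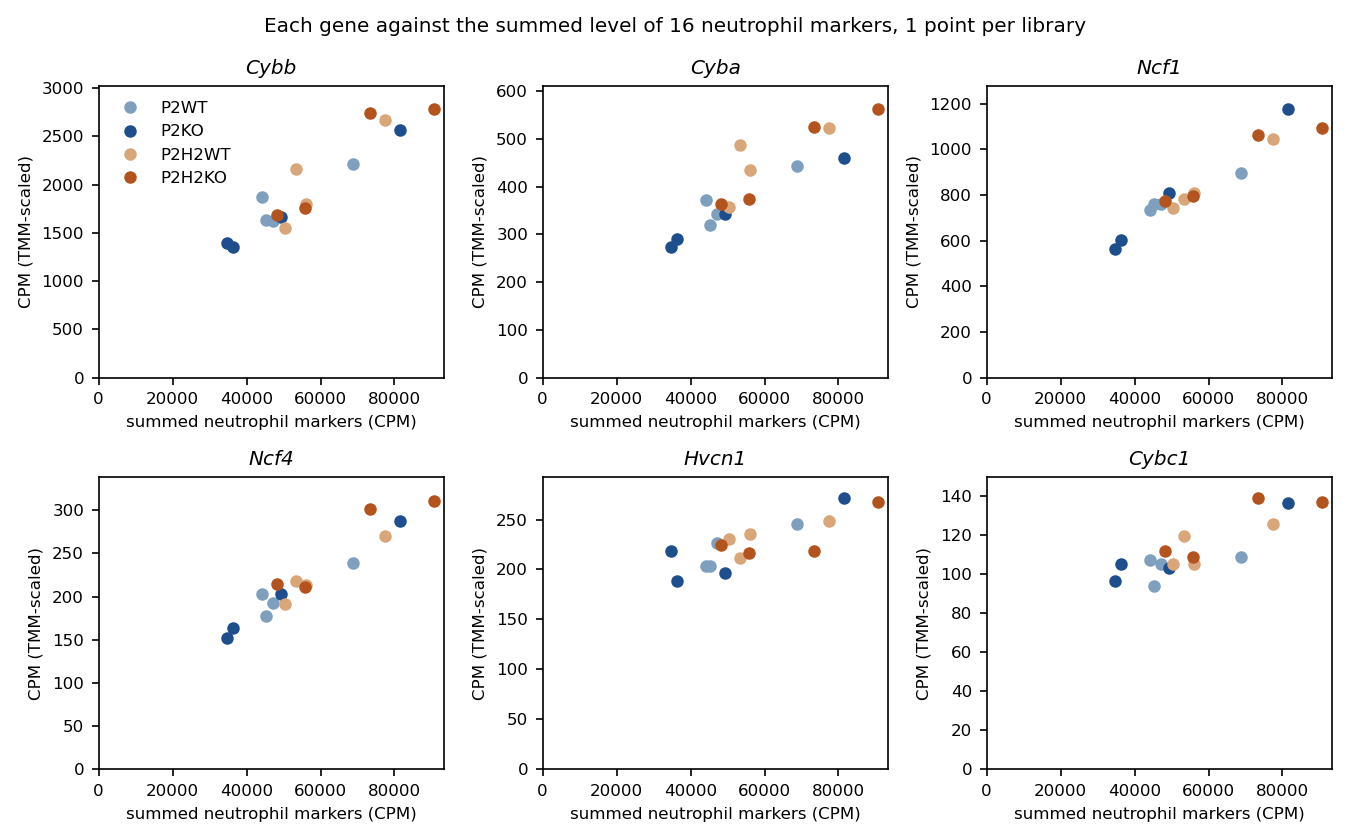
CPM of each gene (y axis) against the summed CPM of 16 neutrophil markers (x axis), 1 point per library coloured by group. Cybb, Cyba, Ncf1 and Ncf4 climb with the markers across all groups, and the groups overlap in every panel.

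The genes whose levels were most like each member, leaving out the other members, were found over the 16 libraries after removal of the line means, as a description. Among 9538 genes with a mean of at least 5 CPM, Cybb was most like Ptgir, Cd300lb and Ptafr (r = 0.991, 0.991 and 0.989), of which the first and last encode receptors for lipid mediators. By the same measure Cybb had r = 0.968 with its partner Cyba. Cyba was most like Tyrobp (0.992), an adaptor of myeloid receptors, and the actin-binding protein genes Capg and Cotl1 (both 0.989). Ncf1 had Mocos (0.988), Mmp9 (0.982) and Pgd (0.981), and Ncf4 had Ostf1 (0.992), S100a6 (0.988) and Pgd (0.986). Pgd encodes an enzyme of the pentose phosphate pathway that makes NADPH, and Mmp9 is one of the neutrophil markers. Hvcn1 had Trp53inp1 (0.960), Prkd2 (0.943) and Dync1i2 (0.932), and Cybc1 had the hexokinase gene Hk2 (0.970), Sntb2 (0.957) and Acvr1b (0.956). Such likeness was common for the subunit genes: 16.5% of all genes had r above 0.8 with Cybb, 15.3% with Cyba, 13.2% with Ncf1 and 14.96% with Ncf4. It was 10.95% for Cybc1 and 1.59% for Hvcn1. Libraries share cell content, so these values are not independent of the marker level.

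Genes that act with the oxidase were likewise not called. Of 20 genes listed for the control of its activation, such as Rac GTPases, kinases and exchange factors, 0 were called by edgeR in any comparison. Over all genes, edgeR called from 0.00% (difference of the effects) to 1.22% (controls). The median average log2 effect of the list was 0.0082, beside 0.0029 over all genes. Pla2g4a, a phospholipase that frees arachidonic acid, had the smallest p of the list in the average effect, at 0.12 (-0.080 to 0.32; 0.23 in the P2 line and 0.023 in the P2H2 line). The kinase Syk had -0.053 (-0.20 to 0.098). Of 10 regulators of oxidase gene transcription 0 were called. Cebpa, a myeloid transcription factor, had -0.38 in the P2 line (-0.60 to -0.17; unadjusted p = 0.00293, edgeR adjusted p = 1) and 0.034 in the P2H2 line. Its mean level was 86.1 ± 7.36 CPM in P2KO and 113 ± 13.2 in P2WT (SD, n = 4). In the P2 line 15 of 15 monocyte and macrophage markers were lower, 5 with an unadjusted p under 0.05 (3.49% of all genes) and 0 called by edgeR. In the P2H2 line, where Cebpa was not lower, 12 of these markers were lower and 3 higher. There 7 of the lower ones had an unadjusted p under 0.05 (2.63% of all genes), and 0 were called by edgeR. The summed level of these markers was 2266 to 2828 CPM in P2KO and 2887 to 3522 in P2WT, without overlap. The part of those cells in the Cebpa value was not tested.

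Of 9 tested genes of NADPH supply, 0 were called, with Idh2 and Pgls, which encode NADPH-producing isocitrate dehydrogenase and a pentose phosphate enzyme, at -0.083 (-0.21 to 0.044) and -0.077 (-0.20 to 0.044) in the average effect. Of 19 genes that handle oxidants, 0 were called and 1 had an unadjusted p under 0.05 there, where 3.72% of all genes did. That gene was Hmox1, the heme-degrading enzyme, with an average log2 effect of -0.31 (-0.60 to -0.027; unadjusted p = 0.0342, edgeR adjusted p = 1), -0.15 in the P2 line and -0.47 in the P2H2 line. Its mean level was 133 ± 17.7 CPM in P2H2KO and 184 ± 60.3 in P2H2WT (SD, n = 4). Hmox1 is also active in macrophages, whose markers were lower in the average effect for 14 of 15 genes, 8 of them with an unadjusted p under 0.05 and 0 called. The part of those cells in the Hmox1 value was not tested. The peroxiredoxin gene Prdx1 had -0.12 (-0.26 to 0.012). Of 8 tested genes that balance charge and pH, 0 were called. The chloride-proton exchanger gene Clcn5 had -0.036 (-0.32 to 0.24) in the average effect.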

How the data were processed

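Sorted neutrophil RNA was sequenced in 16 libraries, 4 per group, grouped by title and description. The authors deposited 2 tables of raw counts per Ensembl gene, 1 per line with 8 libraries each, per the file headers. HTSeq and mm10 are named in the submitters' processing notes. The aligner, annotation and strand setting are not given in the sources used here. Replicates of a group differed beyond sampling noise in all 24 pairs, so none was merged.

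GENCODE M21 (GRCm38) gave symbols for 49326 of 49585 identifiers, and coordinates. The 259 others held 0.00714% of counts. Genes were filtered with filterByExpr, scaled by TMM and tested with edgeR 4.0.16 (glmQLFit robust, glmQLFTest, two-sided), with Benjamini-Hochberg adjustment over all genes tested and a threshold of 0.05. Each line was fitted on its own 8 libraries, and the average and difference of the effects on all 16. CPM values came from the fit of 16 and were divided by the exon union where given per kb. Correlations used log2(CPM + 1) within a line, with exact permutation p over all pairings (scipy 1.17.1). The procedure was tested on simulated data.

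Named genes were the 6 members and, per list, those called or otherwise the 2 with the smallest p in the average effect. Some results that this rule or the promoter search covers are not reported here. For likeness the named genes were the 3 with the highest r, leaving out predicted genes and other members. Members and lists were chosen with earlier results of these data known. Early granule markers (6) and late granule markers (9) had median average log2 effects of 0.060 and 0.069, the B cell list -0.17, the T and NK cell list -0.14, the erythroid list -0.025, and the eosinophil, basophil and mast cell list -0.060, with 0 genes called in each by edgeR. Alternatives were RLE and upper-quartile factors, no filter or a minimum of 10 counts throughout, DESeq2 (version 1.42.0), the title suffix or the neutrophil marker score as covariate, a joint fit of 16 libraries, another gene length and leaving out each library.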

Additional observations from a re-analysis of the deposited data

Results flagged for a closer look

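Among 36 sets of 4 libraries examined for a single distant library, 2 held one, where chance gives about 1 in 20. Ncf1 in P2WT was highest in replicate 10, at 896 CPM, with the other 3 libraries at 734 to 762 CPM. Its gap to the nearest library was 0.8294 of the range. Hvcn1 in P2H2KO was highest in replicate 17, at 268 CPM, with the other 3 at 216 to 225 CPM and a gap of 0.833 of the range. Both libraries had the highest summed neutrophil markers of their group, 68760 and 90600 CPM, and the part of neutrophil content in these values was not tested.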

How the results depend on the processing

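The 6 genes had 0 calls under every alternative run in all 5 comparisons. Of 564 values of their log2 effects under these alternatives, 86 had the opposite sign, and the smallest edgeR or DESeq2 adjusted p was 0.157. The cause of the changes was not tested. With all libraries edgeR called 6 genes (P2 line), 10 (P2H2 line), 0 (difference), 24 (average) and 166 (controls). With DESeq2 the log2 effects that changed sign were Ncf4 -0.0060 and Hvcn1 -0.0025 (P2 line), Hvcn1 5.81e-06 (average), and the genes called numbered 23 (P2 line), 42 (P2H2 line), 65 (average), 419 (controls). With RLE factors the log2 effects that changed sign were Ncf4 -0.0061 and Hvcn1 -0.0025 (P2 line), Hvcn1 4.90e-05 (average). With upper-quartile factors the log2 effects that changed sign were Ncf1 -0.0036, Ncf4 -0.011 and Hvcn1 -0.00083 (P2 line). With no filter the log2 effects that changed sign were Ncf4 -0.0051 (P2 line), Hvcn1 -0.0079 (P2H2 line), Hvcn1 0.0031 (difference). With a minimum of 10 counts in each library the log2 effects that changed sign were Hvcn1 -0.0019 (P2H2 line), and the genes called numbered 87 (controls). In the joint fit of 16 libraries the log2 effects that changed sign were Ncf1 -0.0011, Ncf4 -0.010 and Hvcn1 -0.0051 (P2 line), and the genes called numbered 10 (P2 line), 32 (controls). With the title suffix as covariate the log2 effects that changed sign were Ncf1 -0.055 and Ncf4 -0.018 (P2 line), Cybb -0.019 and Cyba -0.10 (P2H2 line), Cyba 0.0082, Hvcn1 0.0040 and Cybc1 0.021 (difference). With the neutrophil marker score as covariate the log2 effects that changed sign were Cybb -0.044, Cyba -0.12 and Hvcn1 -0.037 (P2H2 line), Cyba 0.023, Hvcn1 0.064 and Cybc1 0.041 (difference), Cybb -0.020 (average), Ncf1 0.0074 (controls), and the genes called numbered 13 (P2 line), 50 (average). Leaving out 1 library at a time changed these counts to 4 to 6 (P2 line), 6 to 9 (P2H2 line), 0 (difference), 15 to 30 (average), 76 to 167 (controls). For the P2 line the log2 values ranged Cybb -0.31 to 0.047, Cyba -0.28 to 0.0076, Ncf1 -0.25 to 0.14, Ncf4 -0.22 to 0.11, Hvcn1 -0.11 to 0.072, Cybc1 -0.017 to 0.16. For the P2H2 line the log2 values ranged Cybb 0.012 to 0.28, Cyba -0.096 to 0.11, Ncf1 0.060 to 0.26, Ncf4 0.12 to 0.32, Hvcn1 -0.070 to 0.036, Cybc1 0.070 to 0.18. For the difference the log2 values ranged Cybb -0.45 to -0.091, Cyba -0.30 to -0.023, Ncf1 -0.40 to -0.013, Ncf4 -0.45 to -0.11, Hvcn1 -0.13 to 0.056, Cybc1 -0.15 to 0.022. For the average the log2 values ranged Cybb -0.095 to 0.11, Cyba -0.14 to 0.0060, Ncf1 -0.058 to 0.14, Ncf4 -0.0073 to 0.17, Hvcn1 -0.061 to 0.035, Cybc1 0.048 to 0.14. For the controls the log2 values ranged Cybb -0.27 to -0.016, Cyba -0.39 to -0.22, Ncf1 -0.17 to 0.0050, Ncf4 -0.23 to -0.045, Hvcn1 -0.14 to -0.044, Cybc1 -0.18 to -0.096. Log2 differences of the ratios ranged Cybb to Cyba -0.031 to 0.054 (P2), Cybb to Cyba 0.077 to 0.18 (P2H2), Ncf1 to Ncf4 -0.048 to 0.035 (P2), Ncf1 to Ncf4 -0.092 to -0.054 (P2H2), Cybc1 to Cybb 0.10 to 0.29 (P2), Cybc1 to Cybb -0.088 to 0.088 (P2H2). Leaving out P2WT replicate 10 gave the lowest count between controls, and P2WT replicate 4 the lowest count in the average. Using the longest transcript as length moved no ratio difference, by its construction. No paired analysis was possible because the groups share no replicate numbers. With 4 libraries a group, the interval of the fold of Cybb was 0.682 to 1.35 in the P2 line and 0.775 to 1.55 in the P2H2 line. That of Ncf1 was 0.711 to 1.43 and 0.870 to 1.40, so changes within these intervals were not resolved.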
